A study of Mus musculus with 2 samples.

Results

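Aqp4 and 7 genes whose products sit with it at the endfeet of astrocytes, Dag1, Dtna, Dmd, Mlc1, Hepacam, Gpr37l1 and Clcn2, were followed across the cell classes of the mouse striatum. They were taken by gene symbol, and all 8 were among the 32285 genes counted in each of 2 single-cell RNA sequencing libraries, replicates 1 and 2 of 1 condition. The cells came from the striatum of untreated adult mice. The sample labels give an age of 8 to 10 weeks, a glia-enriched preparation and the strain tag C57/Bl6J, whereas the labels' protocol text names C57BL/6NTac; no transgene or treatment is listed, and nothing in the labels says how many animals went into each library or whether the libraries came from separate animals. All p-values therefore rest on how consistent a difference was between these libraries, and that variation may be technical. On the 10x Genomics platform every captured mRNA molecule carries a unique molecular identifier (UMI), and levels are given here as CPM, the UMIs of a gene relative to all UMIs of its class on the usual counts-per-million scale.

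Astrocytes send endfeet to blood vessels, and AQP4, the main water channel of the brain, is concentrated in the endfoot membrane that faces the vessel. There it is held by the dystrophin complex, in which syntrophins and dystrobrevin (Dtna) bind dystrophin (Dmd), and dystrophin binds dystroglycan (Dag1), the receptor for laminin, agrin and perlecan of the vascular basement membrane. MLC1 and HepaCAM (GlialCAM) form a separate complex of the endfoot and of astrocyte contacts. HepaCAM brings the chloride channel ClC-2 (Clcn2) to these contacts, GPR37L1 is an orphan receptor found with the complex, and loss of MLC1 or HepaCAM causes a vacuolating leukodystrophy.

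On the GRCm38 build, Dmd spans 2257 kb of the plus strand, chrX:82948870-85206141. Dag1 lies at chr9:108204634-108263958 (minus strand), Mlc1 at chr15:88955884-88979007 (minus), Hepacam at chr9:37367351-37386575 (plus), Gpr37l1 at chr1:135160234-135167681 (minus) and Clcn2 at chr16:20702964-20717746 (minus). RefSeq start sites on GRCm38.p6 were matched for 6 of the 8 members, and the 250 bases before the start are shown for 3 members that were highest in astrocyte-like cells and, for contrast, for Dag1, which was detected in many classes. For Mlc1, Hepacam and Clcn2 the start in RefSeq differs from that of the gene span above, so their windows lie inside the spans given for these genes. Capitals mark CG dinucleotides, which read the same on both strands.
Mlc1 upstream window, GRCm38 chr15:88978554-88978803, minus strand: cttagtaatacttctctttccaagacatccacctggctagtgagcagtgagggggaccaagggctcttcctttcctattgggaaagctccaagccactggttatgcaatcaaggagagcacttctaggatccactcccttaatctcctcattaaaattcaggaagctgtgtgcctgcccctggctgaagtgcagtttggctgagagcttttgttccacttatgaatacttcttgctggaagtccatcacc
Hepacam upstream window, GRCm38 chr9:37367356-37367605, plus strand: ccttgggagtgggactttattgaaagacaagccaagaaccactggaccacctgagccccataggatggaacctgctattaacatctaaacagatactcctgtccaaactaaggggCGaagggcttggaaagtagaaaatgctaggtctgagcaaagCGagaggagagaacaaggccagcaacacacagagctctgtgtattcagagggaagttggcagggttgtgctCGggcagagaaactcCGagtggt
Gpr37l1 upstream window, GRCm38 chr1:135167682-135167931, minus strand: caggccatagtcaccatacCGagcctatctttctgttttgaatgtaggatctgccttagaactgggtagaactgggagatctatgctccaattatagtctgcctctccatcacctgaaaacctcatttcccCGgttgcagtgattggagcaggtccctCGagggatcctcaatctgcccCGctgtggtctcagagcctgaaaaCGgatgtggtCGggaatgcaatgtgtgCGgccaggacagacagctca
Dag1 upstream window, GRCm38 chr9:108263959-108264208, minus strand: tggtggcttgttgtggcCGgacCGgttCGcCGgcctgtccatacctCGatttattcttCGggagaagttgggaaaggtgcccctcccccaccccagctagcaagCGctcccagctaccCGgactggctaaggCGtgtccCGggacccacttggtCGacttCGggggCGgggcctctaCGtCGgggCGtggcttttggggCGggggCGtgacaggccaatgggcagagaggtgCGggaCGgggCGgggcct
The Mlc1 window held no CG dinucleotide, as did 7.87% of 32851 RefSeq windows of the same length, the Hepacam window held 4 and the Gpr37l1 window 7. The Dag1 window held 21, a number that 85.2% of windows did not exceed, and the median window held 6. A second, overlapping Dag1 window had 36, Clcn2 had 11, the window at the far 5′ start of Dmd 2 and that at an internal Dmd start 7. The libraries tag RNA near its 3′ end, and long and short Dmd transcripts were counted together.

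The counts of the 2 libraries comprised 6978 and 5437 barcodes and 44597660 and 37982720 UMIs, and 11995 cells remained after filtering, with 9 barcodes occurring in both libraries. Clusters were built without the members and named from marker genes, and 10 classes had at least 20 cells in each library. The 2181 astrocyte-like cells (1208 in replicate 1 and 973 in replicate 2) had all 10 astrocyte markers raised, and no member was among those markers. Other classes were oligodendrocyte-like, oligodendrocyte precursor cell (OPC)-like, neuroblast-like, neuron-like, endothelial-like, mural-like, fibroblast-like, microglia-like and macrophage-like cells. The neuron-like class of 1491 cells was mixed. At a finer resolution 697 of its cells were oligodendrocyte-like, 424 ependymal-like and 366 neuron-like, and values at that resolution follow for several members, whereas they were not computed for most of the other genes. The finer ependymal-like cluster was itself not clean. Besides all 7 ependymal markers it had 9 neuron markers raised, and Sst was among its leading genes. The oligodendrocyte-like class was mixed too. At the finer resolution 1440 of its cells kept this name and 237 took no class name, with Bmp4, Fyn and Gpr17 among their leading genes. The cells were grouped by other genes measured in the same cells. The tests between classes therefore address how consistent a difference was between libraries and not the choice of classes.

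Aqp4, Dtna, Mlc1, Hepacam and Gpr37l1, 5 of the 8 members, exceeded all 9 remaining classes in astrocyte-like cells (quasi-likelihood test of edgeR, p adjusted by Benjamini-Hochberg, threshold 0.05), a pattern found for 3.67% of all 15347 genes tested. Dmd was highest in mural-like cells, Dag1 had its highest means in mural-like and fibroblast-like cells, and Clcn2 was highest in fibroblast-like cells. All 8 members were higher in astrocyte-like than in microglia-like, endothelial-like, macrophage-like, neuroblast-like and OPC-like cells, directions called for 30%, 28.4%, 22.4%, 27.9% and 22.3% of genes tested, while 29.5%, 26.8%, 21.3%, 27.4% and 19.2% were called lower. With library sizes alone Dag1 no longer passed against OPC-like cells. Against oligodendrocyte-like and neuron-like cells 7 members were higher and 0 lower (31% and 21.7% of genes higher, 25.8% and 28.1% lower), and against mural-like and fibroblast-like cells 6 were higher and 1 lower (25.5% and 10.8% of genes higher, 25.1% and 10.3% lower).

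**Figure D1:**
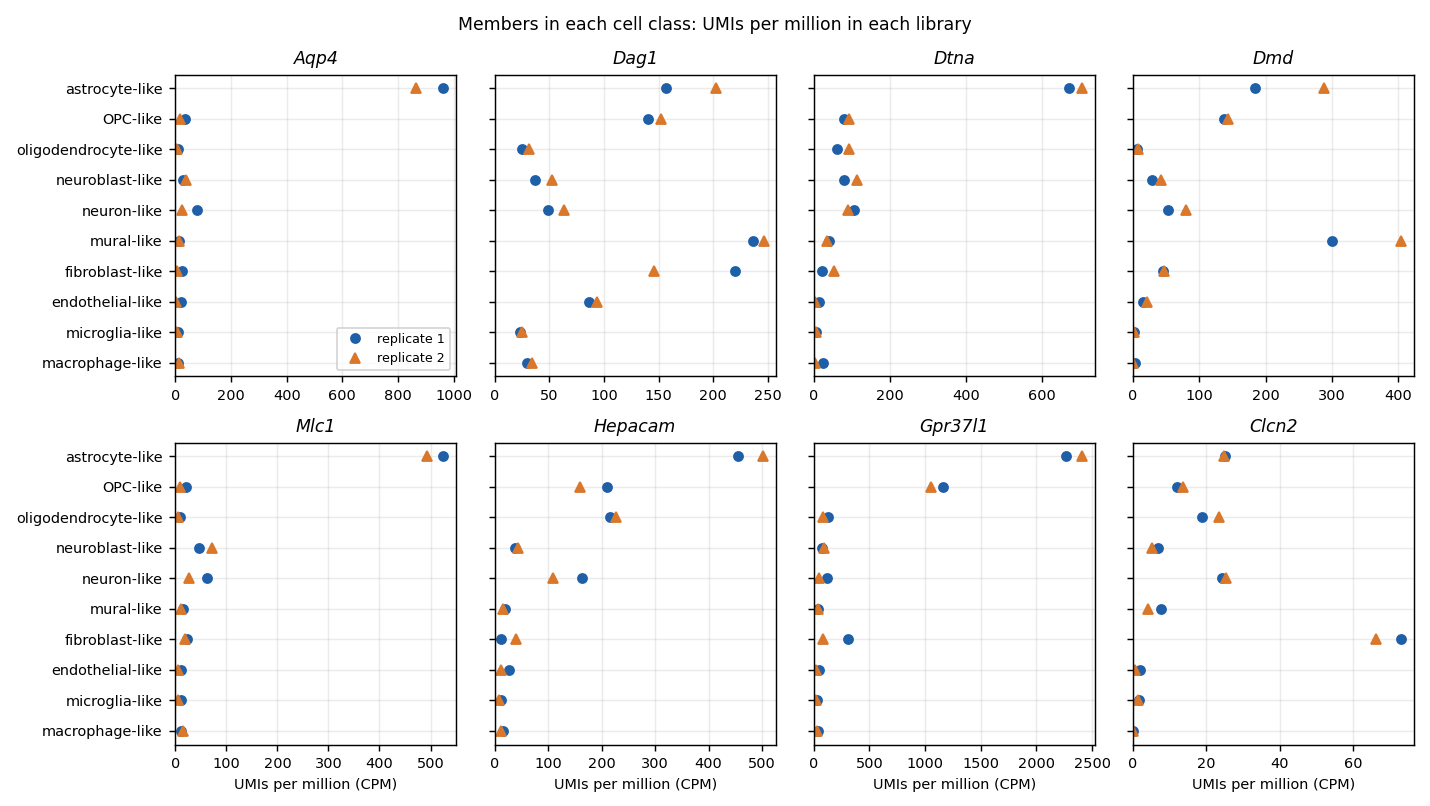
Level of each member (CPM, horizontal axis, linear from 0, scaled separately for each gene) in 10 cell classes (vertical axis) in replicate 1 (circles) and replicate 2 (triangles). Aqp4, Dtna and Mlc1 stand alone in astrocyte-like cells, Gpr37l1 has its next highest level in OPC-like cells, and Dmd and Dag1 reach their highest levels in mural-like cells.

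Aqp4 (minus strand of chr18:15389496-15410982), the water channel, was present at 962 CPM in replicate 1 and 864 CPM in replicate 2 of the astrocyte-like cells. No other class exceeded 77.4 CPM, the value of neuron-like cells in replicate 1, which had 24.99 CPM in replicate 2. The groups did not overlap. Neuroblast-like cells had 27.2 and 39.3 CPM, OPC-like cells 33.5 and 18.6 CPM, and microglia-like cells, at the bottom of the order, 8.03 and 4.93 CPM. The difference from astrocyte-like cells ranged from a log2 fold change of 4.20 (SE 0.35) for neuron-like cells to 6.86 (SE 0.41) for microglia-like cells, with edgeR adjusted p values of at most 5.23e-07. Below astrocyte-like cells no 2 neighbouring classes in the order of Aqp4 differed beyond their spread. When the neuron-like class was divided, its ependymal-like cells had 277 and 134 CPM of Aqp4, its remaining neuron-like cells 41.6 and 12.5 CPM, and astrocyte-like cells were higher than ependymal-like cells by 2.43 on the log2 scale (SE 0.35, edgeR adjusted p = 8.66e-06). Ependymal-like cells were shallow, with a median of 744 UMIs, and had neuron markers raised as well. They also carried 2075 and 801 CPM of Slc1a2, the astrocyte glutamate transporter. The part of other cells' RNA in their Aqp4 was not tested.

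Dtna (plus strand of chr18:23415135-23659715) encodes α-dystrobrevin, which links syntrophins to dystrophin. It was present at 670 and 703 CPM in astrocyte-like cells, above 104 and 90.1 CPM in neuron-like, 78.0 and 114 CPM in neuroblast-like and 62.1 and 92.5 CPM in oligodendrocyte-like cells. The smallest difference was a log2 fold change of 2.79 over neuron-like cells (SE 0.30, edgeR adjusted p = 2.31e-07). At the finer resolution neuron-like cells had 133 and 106 CPM, dividing progenitor-like cells 117 and 152 CPM and the remaining neuroblast-like cells 30.6 and 32.8 CPM, and the smallest difference was 2.58 over progenitor-like cells (SE 0.28, edgeR adjusted p = 3.93e-08). Among neuron-like, neuroblast-like, OPC-like and oligodendrocyte-like cells no neighbours in the order differed beyond their spread. Oligodendrocyte-like cells were above mural-like cells by 1.28 (SE 0.33, edgeR adjusted p = 0.00271), with 41.0 and 35.2 CPM in the latter.

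Dmd, dystrophin itself, was present at 300 and 404 CPM in mural-like cells, the contractile cells and pericytes of vessels, and at 185 and 288 CPM in astrocyte-like cells. Within each library mural-like cells were higher, but the ranges of the 2 classes were close, at 300 CPM for the lower mural-like and 288 CPM for the higher astrocyte-like value. Astrocyte-like cells were below mural-like cells by a log2 fold change of -0.45 (SE 0.17, edgeR adjusted p = 0.0303), a call that was lost with DESeq2 (adjusted p = 0.169), with doublets kept (edgeR adjusted p = 0.0529), with cells under 20% mitochondrial UMIs (edgeR adjusted p = 0.123) and when the block for libraries was dropped (edgeR adjusted p = 0.169). OPC-like cells came next, with 138 and 144 CPM, and were below astrocyte-like cells by 1.20 (SE 0.17, edgeR adjusted p = 1.33e-05). Endothelial-like cells had 14.4 and 21.5 CPM, and microglia-like cells 1.69 and 1.10 CPM.

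Dag1 encodes both subunits of dystroglycan. Mural-like cells had 236 and 246 CPM, fibroblast-like cells 219 and 146 CPM, astrocyte-like cells 157 and 203 CPM, and OPC-like cells 140 and 152 CPM, so that fibroblast-like and astrocyte-like cells overlapped and mural-like cells lay above both. The difference between astrocyte-like and mural-like cells did not pass the test (log2 fold change -0.30, SE 0.15, edgeR adjusted p = 0.110), but did so in the same direction with library sizes alone in place of TMM factors (-0.43, edgeR adjusted p = 0.0264), with at least 500 detected genes (edgeR adjusted p = 0.0288) and with the members kept in the clustering (edgeR adjusted p = 0.0168). Astrocyte-like and fibroblast-like cells did not pass either (0.19, SE 0.21, edgeR adjusted p = 0.600), and the sign of that value turned with library sizes alone (-0.057). Astrocyte-like cells passed as higher than OPC-like cells with TMM factors (0.78, SE 0.15, edgeR adjusted p = 0.000386) but not with library sizes alone (0.29, edgeR adjusted p = 0.131). Endothelial-like cells had 86.3 and 94.0 CPM.

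Mlc1, a membrane protein of astrocyte contacts, was present at 525 and 493 CPM in astrocyte-like cells. Neuroblast-like cells followed with 47.4 and 71.2 CPM and neuron-like cells with 62.6 and 26.0 CPM, and no other class exceeded 22.5 CPM in either library. The smallest difference was 3.24 on the log2 scale, over neuroblast-like cells (SE 0.29, edgeR adjusted p = 1.75e-08). At the finer resolution the dividing progenitor-like cells within the neuroblast-like class had 70.8 and 94.1 CPM and the remaining neuroblast-like cells 19.1 and 23.3 CPM, while neuron-like cells had 17.7 and 8.04 CPM and ependymal-like cells 271 and 160 CPM. The smallest difference was then 1.49, over ependymal-like cells (SE 0.27, edgeR adjusted p = 0.000136).

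Hepacam, the adhesion molecule that brings MLC1 and ClC-2 to cell contacts, was not restricted to astrocyte-like cells. It was present at 455 and 501 CPM there, at 215 and 227 CPM in oligodendrocyte-like cells and at 210 and 160 CPM in OPC-like cells, without overlap between astrocyte-like cells and the other classes. Astrocyte-like cells were above oligodendrocyte-like cells by 0.96 (SE 0.21, edgeR adjusted p = 0.000521), and oligodendrocyte-like cells above OPC-like cells by 0.91 (SE 0.21, edgeR adjusted p = 0.00133), the latter not past the threshold with library sizes alone (0.27, edgeR adjusted p = 0.283). At the finer resolution, in which oligodendrocyte-like cells had 250 and 249 CPM, the first of these differences was 0.56 (SE 0.27, edgeR adjusted p = 0.0852), and it also missed the threshold with cells under 20% mitochondrial UMIs (0.48, edgeR adjusted p = 0.0547) and with the members kept in the clustering (0.55, edgeR adjusted p = 0.0718).

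Gpr37l1 was present at 2264 and 2407 CPM in astrocyte-like cells and at 1164 and 1054 CPM in OPC-like cells, and no other class exceeded 304 CPM, the value of fibroblast-like cells in replicate 1, which was 79.5 CPM in replicate 2. The log2 fold change over OPC-like cells was 1.58 (SE 0.30, edgeR adjusted p = 0.000286), and 1.09 with library sizes alone (edgeR adjusted p = 0.00562). OPC-like cells in turn were above fibroblast-like cells by 2.32 (SE 0.39, edgeR adjusted p = 0.000209).

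Clcn2, the chloride channel, was sparse. Astrocyte-like cells had a mean of 24.97 CPM ± 0.039 (SD, n = 2), neuron-like cells 24.4 and 25.5 CPM and oligodendrocyte-like cells 19.0 and 23.4 CPM, and these classes did not differ beyond their spread (edgeR adjusted p of 0.718 or more for neighbours). At the finer resolution the neuron-like cells had 18.5 and 16.1 CPM, and astrocyte-like cells passed as higher than these (0.86, SE 0.27, edgeR adjusted p = 0.0101). Fibroblast-like cells had 73.1 and 66.3 CPM, a log2 difference of astrocyte-like from fibroblast-like cells of -1.22 (SE 0.36, edgeR adjusted p = 0.0218). That value rested on 13 and 10 UMIs in 34 and 22 cells, and the call was lost when cells were thinned to 1000 UMIs (edgeR adjusted p = 0.519). No UMI of Clcn2 was found in macrophage-like cells, where 3 counts would correspond to 5.01 and 6.80 CPM.

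**Figure D2:**
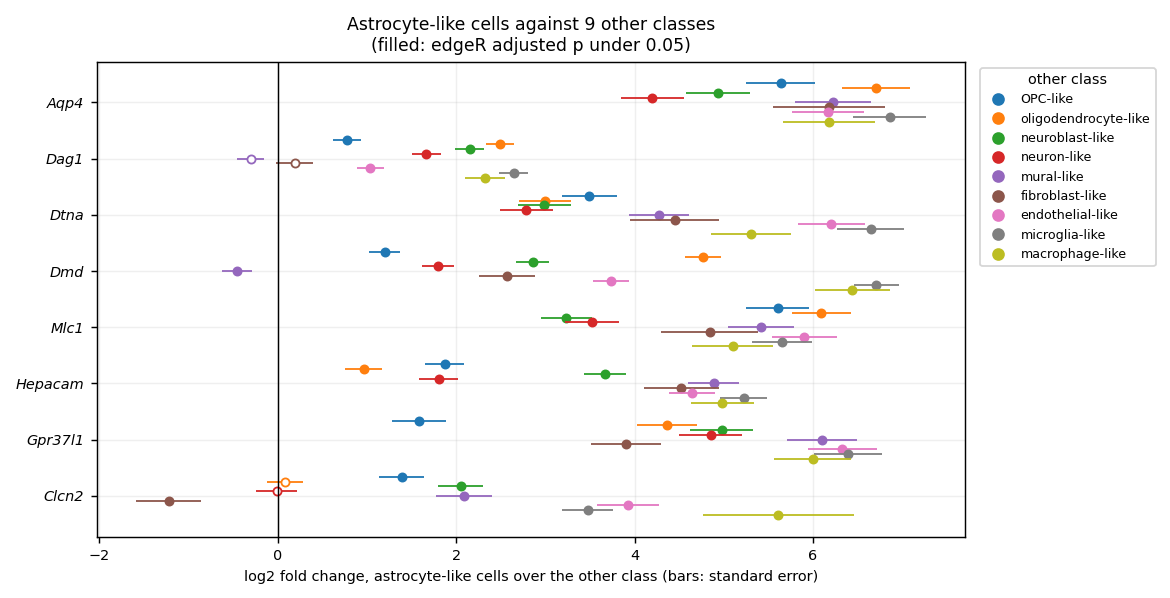
Log2 fold change of astrocyte-like cells over each of 9 other classes (horizontal axis, with standard errors) for each member (vertical axis). Filled points passed an edgeR adjusted p of 0.05; all points of Aqp4, Dtna, Mlc1, Hepacam and Gpr37l1 lie to the right of 0, and open or negative points occur for Dag1, Dmd and Clcn2.

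Over the 8 members there were 72 pairs of neighbouring classes, of which 21 differed with TMM factors and 20 with library sizes alone. Another choice of scaling shifted all genes together: with library sizes alone the median log2 fold change of astrocyte-like over OPC-like cells was -0.36 over all genes, against 0.05 with TMM factors, and over macrophage-like cells it was 0.31 against 0.20. The count of 5 members above every other class was the same with library sizes alone and with DESeq2.

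Dissociated tissue releases RNA that enters all droplets. If a gene and its reference reached a class only through such RNA from 1 source, they would keep the proportion of that source. The UMIs of each member were therefore set against those of Slc1a2 in every class, as a percentage of both. In astrocyte-like cells Aqp4 made up 11.8% (exact 95% binomial interval 11.5 to 12.2) and 10.7% (10.3 to 10.996) in the 2 libraries. A class was counted as above or below when its own interval lay wholly above or below the astrocyte-like interval in both libraries. For Aqp4, 0 of 9 other classes were above. Below were 5, among them microglia-like (4.56% and 5.53%), OPC-like (5.09% and 3.28%) and neuroblast-like cells (5.16% and 5.66%). The mixed neuron-like class had 10.2% and 9.94%, lower than astrocyte-like cells, but its interval was not clear of theirs in both libraries. At the finer resolution neuron-like cells had 8.90% and 7.95% and ependymal-like cells 11.8% and 14.4%. Mlc1, at 6.82% and 6.37% in astrocyte-like cells, was above in 2 classes, neuroblast-like (8.67% and 9.78%) and neuron-like cells. The latter class was mixed, and at the finer resolution neuron-like cells had 3.99% and 5.26%, ependymal-like cells 11.5% and 16.7%, progenitor-like cells 9.55% and 10.1% and the remaining neuroblast-like cells 6.205% and 7.72%. With Slc1a3, another glutamate transporter of astrocytes, as the reference, Mlc1 was above in 1 class, the mixed neuron-like class, and below in 4. Among those 4 were fibroblast-like, OPC-like and microglia-like cells. Their mean Slc1a3 was 730, 299 and 225 CPM, against 3487 CPM in astrocyte-like cells, and a higher level of the reference lowers the proportion. Gpr37l1 was above the astrocyte-like proportion of 24.01% and 24.96% in OPC-like cells (65.0% and 65.8%) and the mixed oligodendrocyte-like class (49.4% and 49.2%). At the finer resolution oligodendrocyte-like cells had 15.3% and 19.2% of Gpr37l1, below the 24.04% and 24.96% of astrocyte-like cells. That finer class left out the 237 cells without a class name and took in 697 cells of the neuron-like class. Hepacam, at 5.97% and 6.47% in astrocyte-like cells, reached 61.6% and 72.9% in oligodendrocyte-like cells and 25.1% and 22.6% in OPC-like cells. Dmd, at 2.51% and 3.83%, reached 52.8% and 70.8% in mural-like cells, and Dag1 was above its astrocyte-like proportion in all 9 other classes. The intervals cover counting error only. Mean Slc1a2 also varied, with 587 CPM in OPC-like and 126 CPM in microglia-like cells, against 7201 CPM in astrocyte-like cells. The proportion within free RNA was not measured. A value above or below the astrocyte-like interval therefore does not by itself separate a class's own RNA from free RNA.

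The share of cells with at least 1 UMI of a member depended on depth, since astrocyte-like cells had median totals of 1905 and 2827 UMIs against 6929 and 5500 in microglia-like cells. Aqp4 was found in 73.6% ± 6.4 (SD, n = 2) of astrocyte-like and 3.36% ± 1.58 of microglia-like cells, a class that should lack it, and after thinning every cell to 1000 UMIs in 52.7% ± 0.5 and 0.749% ± 0.33. Gpr37l1 was found in 86.4% ± 3.9 of astrocyte-like and 96.2% ± 1.2 of OPC-like cells as deposited, an order that turned after thinning (81.5% ± 1.9 and 69.3% ± 1.2). Hepacam likewise went from 60.9% ± 7.4 of astrocyte-like and 85.5% ± 1.8 of oligodendrocyte-like cells to 33.6% ± 1.0 and 20.8% ± 0.6. Dmd remained more often found in mural-like cells, with 72.1% ± 6.9 against 44.5% ± 13.5 before and 34.2% ± 3.0 against 20.5% ± 4.8 after thinning. Thinning left out 348 of the 2181 astrocyte-like cells.

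In single astrocyte-like cells thinned to 1000 UMIs, 3 members was the most frequent number found, in 269 of 962 cells of replicate 1 and 255 of 871 cells of replicate 2, while 26 and 13 cells held none. Gpr37l1 was found in 85.9% of cells with and 73.9% of cells without a UMI of Aqp4 in replicate 1, and in 85.5% and 80.0% in replicate 2. Mlc1 was found in 43.3% against 34.0% and in 42.4% against 36.2%. Dtna was less frequent in cells with Aqp4 in replicate 1 (38.8% against 45.8%) and more frequent in replicate 2 (48.5% against 45.7%). Cells of 1 library are not replicates, and these shares are a description without a test.

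The paralogs of 3 members had other class patterns. Gpr37, the closest relative of Gpr37l1, was highest in oligodendrocyte-like cells with 617 and 778 CPM, against 80.8 and 100 CPM in astrocyte-like and 14.1 and 12.8 CPM in OPC-like cells. Oligodendrocyte-like cells were above neuron-like cells, the next class, by 0.97 (SE 0.28, edgeR adjusted p = 0.00545); at the finer resolution neuron-like cells without oligodendrocyte-like cells had 51.6 and 17.0 CPM. Utrn, utrophin, the relative of dystrophin, was high in endothelial-like cells (613 and 697 CPM) and mural-like cells (551 and 691 CPM), which did not differ beyond their spread (log2 fold change 0.16, SE 0.23, edgeR adjusted p = 0.705), and was at 30.8 and 46.6 CPM in astrocyte-like cells. Mural-like cells thus stood first or second in the order of both genes, and endothelial-like cells first for Utrn and seventh for Dmd. Dtnb, β-dystrobrevin, was highest in neuron-like cells (42.8 CPM ± 3.3, SD, n = 2), above OPC-like cells by 0.88 (SE 0.22, edgeR adjusted p = 0.00283; 0.38 and 0.144 with library sizes alone), and was at 16.9 CPM ± 0.25 in astrocyte-like cells. The neuron-like class was mixed, and no finer value of Dtnb was computed.

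**Figure D3:**
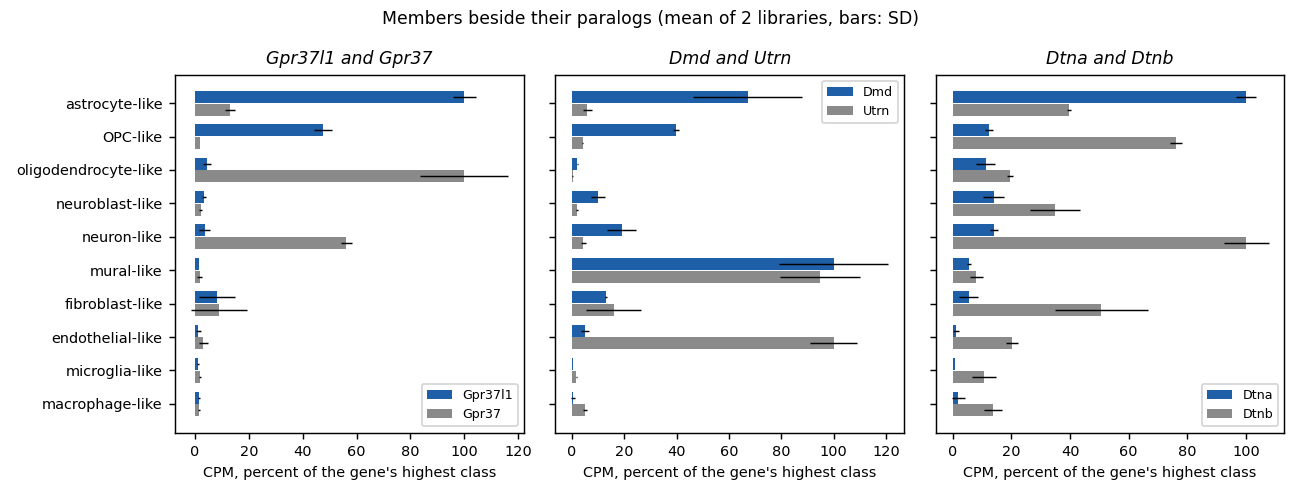
Members (blue) beside their paralogs (grey) in 10 classes (vertical axis), each as a percentage of the mean CPM in that gene's own highest class (horizontal axis from 0; means of 2 libraries, bars show SD). Gpr37l1 and Gpr37 peak in astrocyte-like and oligodendrocyte-like cells, Dmd and Utrn share mural-like cells while Utrn is also high in endothelial-like cells, and Dtna and Dtnb peak in astrocyte-like and neuron-like cells.

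Of the other genes of the dystrophin complex, 4 of 12 tested passed against every other class in 1 class, compared with 32.7% of all genes. None of these passed in astrocyte-like cells, where 3.67% of all genes did, and 0 of 12 lies near that share. The syntrophin genes Sntb1 and Sntg1 passed in mural-like (51.5 CPM ± 24.8, SD, n = 2) and OPC-like cells (85.4 CPM ± 8.2), and the sarcoglycan gene Sgcz in the mixed neuron-like class (79.6 CPM ± 20.4). Against endothelial-like cells, 7 of the 12 genes were higher and 2 lower in astrocyte-like cells (28.4% and 26.8% of all genes). The counts were 6 and 2 against microglia-like (30% and 29.5%) and 6 and 3 against oligodendrocyte-like cells (31% and 25.8%). They were 5 and 2 against neuroblast-like (27.9% and 27.4%) and 4 and 0 against macrophage-like cells (22.4% and 21.3%). The balance was otherwise against mural-like cells, with 3 higher and 5 lower (25.5% and 25.1%), and neuron-like cells, with 2 and 5 (21.7% and 28.1%). It was 3 and 3 against OPC-like (22.3% and 19.2%) and 0 and 1 against fibroblast-like cells (10.8% and 10.3%).

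All 11 genes for the basement membrane proteins that dystroglycan binds were lower in astrocyte-like than in mural-like cells, with a median log2 fold change of -4.92 against 0.09 over all genes tested, of which 25.1% were lower. Against endothelial-like cells 9 of 11 were lower and 1 higher (median -2.81 against 0.02 over all genes, of which 26.8% were lower and 28.4% higher). Against fibroblast-like cells 0 were higher and 9 lower (median -5.05, beside 10.8% and 10.3%). The counts were 5 and 3 against oligodendrocyte-like (31% and 25.8%) and 4 and 0 against microglia-like cells (30% and 29.5%). They were 3 and 0 against macrophage-like (22.4% and 21.3%) and 3 and 4 against OPC-like cells (22.3% and 19.2%). Neuron-like cells gave 2 and 4 (21.7% and 28.1%) and neuroblast-like cells 2 and 0 (27.9% and 27.4%). Agrn, agrin, passed against every class in endothelial-like cells (206 CPM ± 15.2, SD, n = 2), Lama1 and Lamb1, laminin chains, in fibroblast-like cells (278 CPM ± 66.5 and 177 CPM ± 67.8), and Egflam, pikachurin, in mural-like cells (90.5 CPM ± 3.0). Among 12 genes of the enzymes that glycosylate dystroglycan, 7 were higher and 1 lower in astrocyte-like than in endothelial-like cells, with a median of 0.65 on the log2 scale, beside 28.4% and 26.8% of all genes. Against neuron-like cells 2 were higher and 4 lower (median -0.42), beside 21.7% and 28.1% of all genes. Against oligodendrocyte-like cells the counts were 4 and 4, beside 31% and 25.8%. They were 7 and 1 against neuroblast-like (27.9% and 27.4%) and 6 and 2 against microglia-like cells (30% and 29.5%). Mural-like cells gave 6 and 2 (25.5% and 25.1%) and macrophage-like cells 4 and 1 (22.4% and 21.3%). OPC-like cells gave 3 and 1 (22.3% and 19.2%) and fibroblast-like cells 1 and 0 (10.8% and 10.3%). Of the 12 genes 4 passed in 1 class, where 32.7% of all genes did so. Among those were Rxylt1 (119 CPM ± 1.7) and Pomgnt1 (56.3 CPM ± 0.40) in oligodendrocyte-like cells and B4gat1 (203 CPM ± 30.0) in the mixed neuron-like class.

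Of 10 genes tested for partners of MLC1 and cell volume control, 9 passed against every other class in 1 class, compared with 32.7% of all genes. None of them did so in astrocyte-like cells, where 3.67% of all genes tested passed, and 0 of 10 lies near that share. Oligodendrocyte-like cells held 5 of them, beside 5.08% of all genes. The others passed in macrophage-like, endothelial-like, neuron-like or microglia-like cells (2.16%, 3.60%, 4.36% and 3.56% of all genes). In astrocyte-like cells 7 of the 10 were higher and 3 lower than in microglia-like cells (30% and 29.5% of all genes). The counts were 7 and 2 against neuroblast-like cells (27.9% and 27.4%) and 6 and 2 against OPC-like cells (22.3% and 19.2%). They were 6 and 2 against mural-like (25.5% and 25.1%), 6 and 0 against fibroblast-like (10.8% and 10.3%) and 6 and 3 against macrophage-like cells (22.4% and 21.3%). Against endothelial-like cells 5 were higher and 4 lower (28.4% and 26.8%). Against neuron-like cells 3 were higher and 5 lower (21.7% and 28.1%), and against oligodendrocyte-like cells 4 and 6 (31% and 25.8%). Kcnj10, the Kir4.1 potassium channel that shares the endfoot with AQP4, was at 220 and 218 CPM in oligodendrocyte-like, 142 and 152 CPM in OPC-like and 117 and 176 CPM in astrocyte-like cells. Oligodendrocyte-like cells were above OPC-like cells by 1.20 (SE 0.28, edgeR adjusted p = 0.00112), which fell to 0.57 with library sizes alone (edgeR adjusted p = 0.0845), while OPC-like and astrocyte-like cells did not differ beyond their spread (edgeR adjusted p = 0.177). Gprc5b, an orphan receptor of the MLC1 complex, had 186 and 347 CPM in oligodendrocyte-like and 168 and 249 CPM in astrocyte-like cells, with overlapping ranges but the same order within each library.

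Of 11 other aquaporin genes, 3 had enough UMIs to be tested. Aqp9, an aquaglyceroporin, was at 31.1 and 39.7 CPM in astrocyte-like cells and was above every other class, none of which exceeded 6.63 CPM in either library. Aqp11, an aquaporin of intracellular membranes, was highest in endothelial-like cells (164 and 146 CPM), with 39.3 and 35.9 CPM in mural-like and 28.6 and 24.9 CPM in astrocyte-like cells. Aqp1 did not exceed a mean of 0.749 CPM in any class, and no UMI of Aqp12 was counted in these classes.

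Over the 20 sums of class and library, the genes whose log2(CPM + 10) was most like that of Aqp4 were Ccdc190 (Pearson's r = 0.969), Psd2 (0.967), Mlc1 (0.966), Cyp4f15 (0.965) and Bmpr1b (0.963). Among 15346 genes ranked in this way the other members stood at rank 281 (Dtna), 445 (Gpr37l1), 721 (Hepacam), 1405 (Dmd), 2512 (Dag1) and 3074 (Clcn2). The sums of a library share its depth and its free RNA, and r is given as a description.

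Within astrocyte-like cells Dtna and Dmd differed between subclusters, whereas no difference in Aqp4 passed the test in the main fit. Clustering these cells alone, again without the members, gave 4 subclusters, and Aqp4 was at 882 and 821 CPM in subcluster 0, 1012 and 875 in subcluster 1, 888 and 801 in subcluster 2 and 989 and 912 in subcluster 3. Dtna and Dmd, in contrast, fell by log2 values of 2.64 (SE 0.16, edgeR adjusted p = 1.04e-17) and 2.61 (SE 0.20, edgeR adjusted p = 2.51e-14) from subcluster 0 to subcluster 2. Dtna went from 1044 and 1110 CPM to 140 and 187 CPM and Dmd from 286 and 426 CPM to 41.2 and 66.0 CPM, without overlap. Mlc1 was higher in subcluster 2, with 765 and 694 CPM against 441 and 478 CPM (log2 fold change 0.77, SE 0.14, edgeR adjusted p = 7.30e-06), and Clcn2 was lower (-1.21, SE 0.43, edgeR adjusted p = 0.0176).

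These 4 members passed the test between subclusters 2 and 0, in which 51.2% of 9295 genes passed, 25.7% higher and 25.5% lower. Aqp4 did not (0.08, SE 0.13, edgeR adjusted p = 0.607), nor did Gpr37l1, Hepacam and Dag1. Between subclusters 1 and 0, where 46.6% of genes passed (23.4% higher and 23.2% lower), Dtna (-0.77, SE 0.12, edgeR adjusted p = 1.40e-06), Dmd (-0.73, SE 0.13, edgeR adjusted p = 9.79e-06) and Hepacam (0.30, SE 0.13, edgeR adjusted p = 0.0449) passed. Aqp4 did not (0.06, SE 0.12, edgeR adjusted p = 0.706), and Dtna was at 641 and 700 CPM in subcluster 1. The call of Hepacam in subcluster 1 was lost with DESeq2, after thinning to 1000 UMIs and when the block for libraries was dropped. That of Clcn2 in subcluster 2 was lost with DESeq2 and without the block, had too few UMIs to be tested after thinning, and rested on a log2 difference of -2.10 in replicate 1 and -0.42 in replicate 2. DESeq2 called fewer of the 9295 genes in general. Between subclusters 1 and 0 it called 1122 higher and 722 lower, against 2175 and 2156 in the main fit. Between subclusters 2 and 0 it called 1815 and 1488, against 2389 and 2371. Subcluster 3 had 15 cells in replicate 1 and was not tested.

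Other properties of the libraries moved with these differences. Malat1, a nuclear RNA, took 13.9% and 11.1% of the UMIs of subcluster 0, 7.17% and 6.53% of subcluster 1 and 1.15% and 0.912% of subcluster 2. The nuclear RNA Kcnq1ot1 fell in the same order, from 197 and 254 CPM through 66.0 and 63.8 CPM to 16.5 and 8.61 CPM. Meg3, also a nuclear RNA and 1 of the neuron markers, did not follow that order, with 93.0 and 79.9, 45.1 and 29.1, and 102 and 37.3 CPM. These RNAs were chosen after their values had been seen. The median number of UMIs per cell was 1795 and 1466 in subcluster 0, 8708 and 7577 in subcluster 1 and 1195 and 1561 in subcluster 2, with median mitochondrial shares of 11.1% and 15.7%, 5.00% and 6.54%, and 8.16% and 10.4%. The summed level of 8 oligodendrocyte markers was 2733 and 1025 CPM in subcluster 0, 1249 and 553 CPM in subcluster 1 and 4055 and 1196 CPM in subcluster 2. The 10 leading genes of subcluster 2 were Mal, Hpca, Cldn11, Tmsb10, Ermn, Tubb3, Kif5a, Ptgds, Pcp4 and Stmn1. Of these, Mal, Cldn11 and Ermn are genes of oligodendrocytes and Tubb3 of neurons and neuroblasts. Leading genes were ranked against the other astrocyte-like cells, and no astrocyte marker was among the 10 of any subcluster. The summed level of 8 microglia markers was 474 and 329, 194 and 175, and 386 and 207 CPM, and C1qa, C1qb and Tyrobp were among the leading genes of subcluster 0, while 10 astrocyte markers summed to 18047 and 17815, 23649 and 24877, and 20558 and 23688 CPM. The part of RNA content, depth or other cells' RNA in the differences of Dtna and Dmd was not tested.

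**Figure D4:**
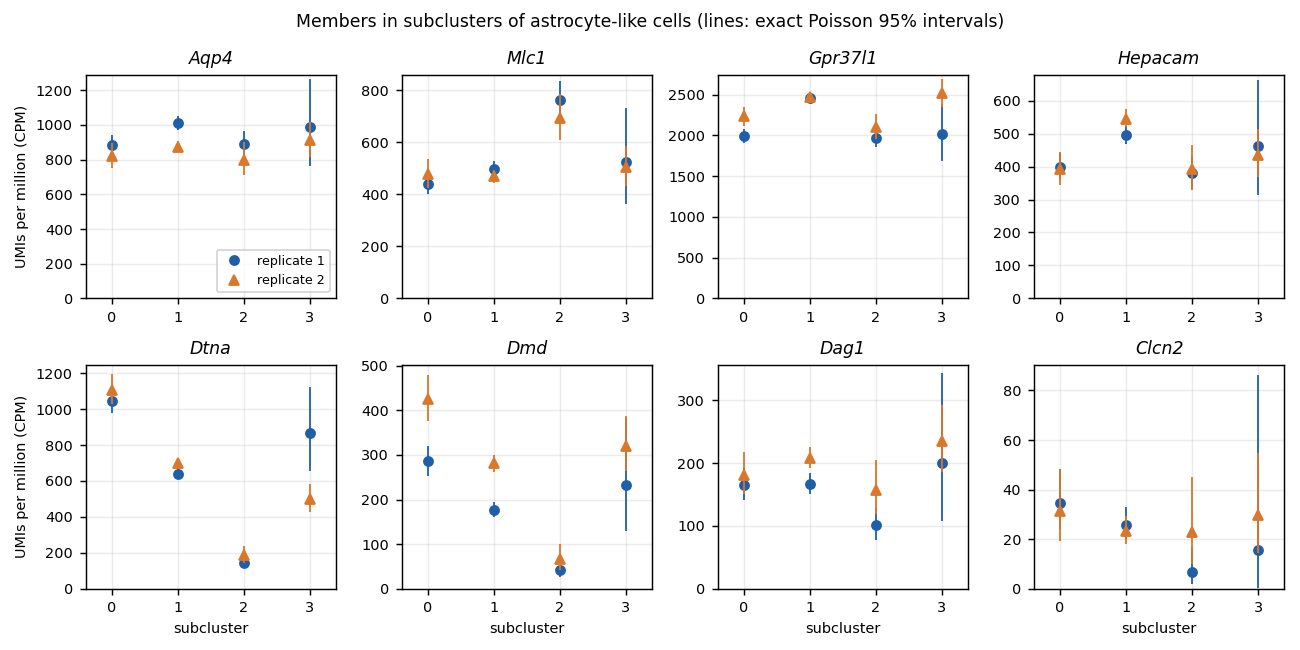
Level of each member (CPM, vertical axis from 0) in subclusters 0 to 3 of the astrocyte-like cells (horizontal axis) in replicate 1 (circles) and replicate 2 (triangles), with exact 95% Poisson intervals. Aqp4 stays between 801 and 1012 CPM across subclusters 0, 1 and 2, Dtna and Dmd are lowest in subcluster 2, and Mlc1 is highest there.

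The study divided astrocytes by Crym, the gene of μ-crystallin. Here 480 and 434 astrocyte-like cells were Crym+ (natural log value above 0.25) and 728 and 539 Crym-. At least 1 Crym UMI chose the same cells, so that alternative could change nothing. Crym- cells are thus cells without a Crym UMI, which depends on depth. Aqp4 was at 928 and 781 CPM in Crym+ and 998 and 968 CPM in Crym- cells of replicates 1 and 2, lower in Crym+ cells of both libraries and without overlap. Its log2 fold change was -0.23 (SE 0.08, edgeR adjusted p = 0.0421), and that of Dmd was -0.32 (SE 0.10, edgeR adjusted p = 0.0128), with 173 and 254 CPM in Crym+ and 197 and 331 CPM in Crym- cells. These 2 of 8 members passed, compared with 10.9% of 6100 genes (4.25% higher and 6.66% lower), and the others lay between -0.14 for Clcn2 and 0.16 for Hepacam.

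Both calls depended on the settings. With DESeq2, without the library as a block, without the filter on genes, after thinning to 1000 UMIs, with the members kept in the clustering, or with a block for library and subcluster, 0 of 8 members passed, with 0, 0, 3, 1, 2 and 2 at an unadjusted p under 0.05. DESeq2 called few genes of any kind here, 18 of 6100 higher and 24 lower, against 259 and 406 in the main fit. Such counts over all genes are not given for the other settings. Crym+ cells were deeper, with medians of 2586 and 5240 UMIs against 1624 and 1973, and made up 29.1% and 30.9% of subcluster 0, 60.5% and 65.1% of subcluster 1 and 40.5% and 44.0% of subcluster 2. Kcnj10 was lower in Crym+ cells, at 101 and 115 CPM against 134 and 253 CPM (log2 fold change -0.83, SE 0.11, edgeR adjusted p = 3.02e-12). The gap was wider in replicate 2, and the settings above are not given for Kcnj10. It was also lower in subcluster 1 than in subcluster 0 (-0.48, SE 0.15, edgeR adjusted p = 0.00834). Between subclusters 2 and 0 it did not pass (0.39, SE 0.18, edgeR adjusted p = 0.0616).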

How the data were processed

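Single-cell RNA was measured in 2 libraries of 1 condition. The authors made the deposited values, raw UMI counts per gene and cell, with Cell Ranger on mm10; the submitters' notes give version 4.0, the matrix header 4.0.0 and the study's methods another version. No normalization had been applied.

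Kept were cells in which 300 or more genes were detected and genes present in over 3 cells. Scrublet (scanpy 1.11.5, each library alone, expected doublets 6%) marked 115 and 152 barcodes, which were removed. Seurat 5.3.0 in R 4.3.3 integrated the libraries on 2000 variable genes and clustered cells on 30 principal components at resolution 0.08 (alternatively 0.32). The 66 genes of the members and lists, Crym and 97 cell-cycle genes were left out. A cluster took the name of a class when at least 3 markers were raised at least 2-fold, with 10 CPM added to both sides, and 1 of them was among its 50 leading genes.

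Counts were summed per library and class and fitted in edgeR 4.0.16 (TMM factors, filterByExpr, quasi-likelihood test, library as a block, prior count 2), with p-values adjusted over all genes tested at a threshold of 0.05. Since 1 suspension gave every group of a library, the pairing by library is part of the design. Standard errors were derived from the F statistic and are approximate. For the Crym comparison, a gene had to be detected in 10% of cells or more on 1 side. The fits were tested on simulated data. Intervals on shares and levels are exact at 95% and cover counting error only.

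Named besides the members were their paralogs, Kcnj10, Slc1a2 and Crym, list genes that passed against every other class in the class where they were highest (up to 4 per list, by mean CPM), and the 5 genes most like Aqp4. The members and lists were chosen with earlier results of these data known. Alternatives were DESeq2 1.42.0, library sizes alone, no block, no filter on genes, thinning to 1000 UMIs, doublets kept, at least 500 detected genes, under 20% mitochondrial UMIs, the finer resolution, members and lists kept in the clustering, at least 1 Crym UMI, Slc1a3 as the reference, and leaving out each library; a block for library and subcluster, leaving out subcluster 2, and library sizes alone for the order of classes were added after seeing the data, as were the UMI proportions in the finer classes. Positions are from GENCODE M21 on GRCm38, which carries the sequence of mm10, and promoter windows from RefSeq; windows for Aqp4 and Dtna are not shown. Some genes that the rule would name are not reported here.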

Additional observations from a re-analysis of the deposited data

How the results depend on the processing

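With the library left out as a block, 5 members were still above every other class, 17 in place of 21 neighbouring pairs of classes differed (20 with library sizes alone), 0 in place of 2 members passed between Crym+ and Crym- cells, 1 in place of 3 passed between subclusters 1 and 0, and 3 in place of 4 between subclusters 2 and 0. Without replicate 1 or 2 no test was possible. Members passing between Crym+ and Crym- cells numbered 0 with DESeq2, without the filter on genes, after thinning, with the members kept in the clustering and with a block for library and subcluster, and 1 (Dmd) with library sizes alone, at least 500 detected genes or under 20% mitochondrial UMIs. In that comparison DESeq2 called only 18 genes higher and 24 lower of 6100 tested. Without the filter on genes 5 in place of 3 members passed between subclusters 1 and 0. Neither their names nor the share of all genes passing is given for that setting. The statement that no Aqp4 difference passed between subclusters therefore refers to the main fit. The share of astrocyte-like cells with a UMI of Aqp4 was 64.6% with the members kept in the clustering and 52.7% after thinning.

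Small differences turned their sign without passing the test. Between Crym+ and Crym- cells these were Dtna (0.0018 with a block for library and subcluster), Mlc1 (-0.026 after thinning) and Gpr37l1 (0.021 without the filter on genes, 0.019 under 20% mitochondrial UMIs, 0.026 with the members kept in the clustering). Between subclusters 1 and 0 they were Aqp4 (-0.13), Dag1 (-0.014) and Gpr37l1 (-0.052) after thinning, Dag1 with DESeq2 (-0.034), and Mlc1 with library sizes alone (0.072) or without the filter (0.24). Between subclusters 2 and 0 they were Aqp4 (-0.024 and -0.095), Hepacam (-0.050 and -0.16) and Gpr37l1 (-0.067 and -0.022) with library sizes alone and after thinning. The causes were not tested. Depth limits Clcn2 most, and with 2 libraries each SD rests on a pair of values. The tests between classes used a spread shared by all classes, for the same reason. No fibroblast-like class was formed with doublets kept, with under 20% mitochondrial UMIs or with the members kept in the clustering, so that 8 other classes were compared there. Members above every other class numbered 4 (without Hepacam) with under 20% mitochondrial UMIs, at resolution 0.32 and with the members kept in the clustering, and 5 under the other 8 alternatives. The classes were drawn anew in such settings, so different cells were compared. Astrocyte-like cells numbered 680 and 637 with under 20% mitochondrial UMIs and 1504 and 1068 with the members kept, against 1208 and 973 in the main clustering. The share of cells with Aqp4 ranged from 69.0% to 78.1% over single libraries.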

Other observations

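Genes of cell volume control and of the ligands around the MLC1 complex had class patterns of their own. Psap, the precursor of the prosaposin peptides proposed as ligands of GPR37L1 and GPR37, was highest in microglia-like cells, at 1765 CPM ± 32.6 (SD, n = 2), and passed against every other class there by edgeR. Trpv4, a cation channel opened by cell swelling, passed in macrophage-like cells at 49.9 CPM ± 9.6. Atp1b1, the sodium pump subunit found with MLC1, passed in the neuron-like class at 1094 CPM ± 488, a mixed class for which no finer value of this gene was computed. Of the subunits of the volume-regulated anion channel, Lrrc8b (82.7 CPM ± 12.6) and Lrrc8d (53.5 CPM ± 12.7) passed in oligodendrocyte-like cells and Lrrc8c (142 CPM ± 11.6) in endothelial-like cells, while Lrrc8a was highest in endothelial-like cells (162 CPM ± 22.2) without passing against every class. Some of these genes exceed the number that the rule for named genes takes per list and were named after their values were seen.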
